A study of Mus musculus with 8 samples.

Results

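The genes described here are 35 genes of the NRF2 pathway and of glutathione metabolism, chosen by symbol from both count tables of a study of RPRD1B knockdown in NIH3T3 cells, a mouse embryonic fibroblast line. All 35 were among the 23420 entries of the tables, and 33 were tested because their counts averaged 10 or more per library. RPRD1B, which associates with the tail of RNA polymerase II, was depleted, and the study compared messenger RNA levels between control and knockdown cells. The control group was 4 libraries of cells with a scrambled short hairpin RNA (shRNA), and the knockdown group was 4 libraries of cells with shRNA against RPRD1B. Cells of both groups carried an shRNA, grew in bovine calf serum and were selected with puromycin for at least 1 week. The sources used here give neither the hairpin sequences nor whether the replicates were separate cultures, so p-values measure the spread between libraries, which may be technical.

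NRF2, the product of Nfe2l2, is a transcription factor that is held down by KEAP1, an adaptor that directs it to a ubiquitin ligase. Oxidants and electrophiles modify KEAP1, and the NRF2 that escapes binds antioxidant response elements with small MAF proteins. Its best-known targets make and recycle glutathione, run the thioredoxin system, supply NADPH, conjugate and export electrophiles, and reduce quinones. In cultured fibroblasts, cystine uptake, glutathione and thioredoxin are main defences against oxidants.

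The libraries came in 2 sets, set 1 with replicates 1 and 2 of each group and set 2 with replicates 3 and 4, and held 12311442 to 23223139 counts. The set was the main source of variance (79.8% on the first principal component) and the fit over all 8 libraries carried a term for it. The labels do not say what separates the sets. Rn45s, the ribosomal RNA precursor, took 6.94% and 7.44% of the counts in scrambled and 4.99% and 5.72% in knockdown libraries of set 1, and 5.63% and 7.69% against 8.02% and 9.98% in set 2. It was lower with knockdown in set 1 (-0.46 ± 0.07, adjusted p = 0.00505 in edgeR) and at 0.46 ± 0.30 in set 2 (adjusted p = 0.641), and its part in the results was not tested. Rprd1b itself stood at 39.5 to 44.4 CPM (counts scaled to a common library total, with TMM factors) in the 4 scrambled libraries and at 22.5 to 28.0 CPM in the 4 knockdown libraries. All 8 fibroblast markers were above 1 CPM in every library, while the summed markers of epithelium, endothelium, muscle and adipocytes each stayed at or under 0.658 CPM and those of leukocytes at 3.66 to 9.91 CPM. Of the 3 leukocyte markers 2 were among the entries, and 1 was above 1 CPM in every library.

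Over both sets, knockdown cells had more RNA of the glutathione transferases Mgst3, Gsta4 and Gstm1, of the cystine transporter gene Slc7a11, of Nfe2l2, and of the superoxide dismutases Sod1 and Sod2. They had less RNA of thioredoxin reductase (Txnrd1) and of the peroxiredoxin Prdx6. The largest change was of Mgst3, with 42.6% more RNA, and 5 of the 9 changes were within about 10% of the scrambled level. Of the 33 tested genes 7 rose and 2 fell at an adjusted p under 0.05 (edgeR quasi-likelihood test, Benjamini-Hochberg over 11723 genes), which is 27.3% of them, against 7.57% of all tested genes. The calls by direction over all tested genes were 3.97% higher and 3.61% lower. The list was chosen with earlier results of these data known, so its shares are descriptions and not tests. Calls are more frequent among abundant genes: of 3212 genes that averaged 1000 or more counts per library, 12.3% were called, and 7 of 20 genes of the list. The median log2 fold change of the list was -0.01, against 0.00 for all tested genes. Without knockdown replicate 2 the calls were 4 higher and 0 lower. Without scrambled replicate 2, scrambled replicate 4, knockdown replicate 1 or knockdown replicate 3, each left out alone, 1 gene was called lower. With no term for the set edgeR called 0, against 0.154% of all tested genes, with 3 at an unadjusted p under 0.05, against 4.07%. With the term, DESeq2 called 5 higher and 2 lower, against 2.37% and 2.33% of all genes.

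**Figure D1:**
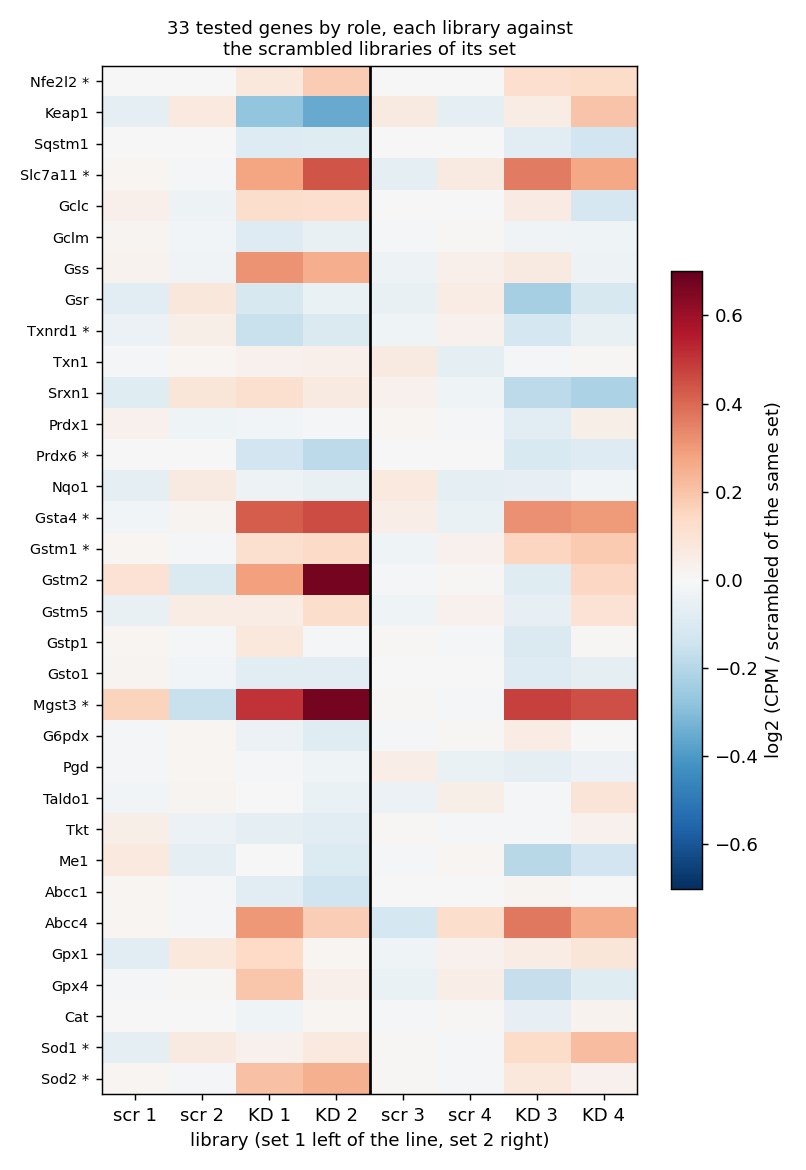
Heat map of the 33 tested genes (rows, ordered by role) in the 8 libraries (columns; scr, scrambled; KD, RPRD1B knockdown), as log2 CPM minus the mean log2 CPM of the 2 scrambled libraries of the same set, on a colour scale from blue (lower) to red (higher). Asterisks mark the 9 genes called over both sets, and Mgst3, Gsta4 and Slc7a11 are red in all 4 knockdown libraries.

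The regulators differed among themselves. Nfe2l2 stood at 248.9 and 248 CPM in the scrambled libraries of set 1 against 262 and 281 CPM in the knockdown libraries, and at 254 and 253 against 275 and 277 CPM in set 2. All 4 knockdown libraries were above all 4 scrambled libraries. It rose by 0.12 ± 0.03 on the log2 scale (standard error; adjusted p = 0.0101 in edgeR), a change of 9.03%. Without knockdown replicate 2 the fold was 0.10 and the call was lost (adjusted p = 0.104). The fold was close in each set fitted alone, 0.13 ± 0.05 and 0.12 ± 0.04, with adjusted p of 0.0853 and 0.0926.

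Keap1, the repressor of NRF2, was the lowest of the 3 regulators, at 17.4 and 19.1 CPM against 15.0 and 14.3 in set 1 and at 9.17 and 8.38 against 9.10 and 10.1 in set 2. The knockdown libraries were below the scrambled ones in set 1 and overlapped them in set 2. The fold over both sets was -0.12 ± 0.11 (adjusted p = 0.613), and the difference of 0.45 ± 0.21 between the sets did not pass either (adjusted p = 0.517). An antisense gene, Gm16754, covers 10.9% of the Keap1 exons, and the library kit is not described as stranded. Sqstm1 codes for p62, an autophagy receptor that binds KEAP1 and is itself a target of NRF2. It stood at 145 and 145 against 136 and 136 CPM in set 1 and at 243 and 243 against 230 and 221 CPM in set 2, lower in the knockdown libraries of each set by a margin that missed the threshold (-0.10 ± 0.04, adjusted p = 0.0714). The 65 other tested genes within 5 Mb of Sqstm1 on chromosome 11 had a median log2 fold change of -0.09. Mrnip overlaps 17.3% of the Sqstm1 exons on the opposite strand. The part of either in the Sqstm1 value was not tested.

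Antioxidant response elements were searched in the promoters as TGACNNNGC on either strand, from 250 bases before to 50 after each start in RefSeq's GRCm38.p6 table, whose coordinates are those of mm10. Promoters were found for 30 genes of the list, of which 12 held the motif at 1 or more starts, 40.0%, against 17.3% of 8731 tested genes and 14.0% of all 27025 genes of the table. Of 66 other genes of the pathway with a promoter 11 held it, 16.7%. The list was chosen for NRF2 targets, and a gene with several starts has more places for a match. The share of the list is therefore a description and not a finding. The motif was present in 3 of the 7 called genes with a promoter (Nfe2l2, Sod1 and Txnrd1) and in 9 of the 23 others. The called genes Gsta4 and Prdx6, and Gclc, Gsr and Abcc1, had no promoter there and were not searched. Elements outside this window were not searched for any gene. Me1 and Prdx1 carried the same site, TGACTCAGC, which also holds the AP-1 motif TGACTCA. Sod1 and Gstm5 shared TGACCACGC. The promoter of Nfe2l2 is shown because the gene was higher in all knockdown libraries and its promoter holds a match, and that of Txnrd1 because a match lies at 1 of its 3 starts and the gene changed in the other direction; capitals mark the match, 240 bases before the start in Nfe2l2 and, on the reverse strand, 92 before it in Txnrd1.
Nfe2l2 (chr2:75704614-75704913, minus strand): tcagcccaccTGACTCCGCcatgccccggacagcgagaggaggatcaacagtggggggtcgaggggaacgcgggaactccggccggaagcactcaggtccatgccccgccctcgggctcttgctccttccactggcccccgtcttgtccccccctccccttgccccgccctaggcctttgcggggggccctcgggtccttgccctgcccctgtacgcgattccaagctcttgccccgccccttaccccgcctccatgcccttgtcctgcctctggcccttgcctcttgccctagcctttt
Txnrd1 (chr10:82858956-82859255, plus strand): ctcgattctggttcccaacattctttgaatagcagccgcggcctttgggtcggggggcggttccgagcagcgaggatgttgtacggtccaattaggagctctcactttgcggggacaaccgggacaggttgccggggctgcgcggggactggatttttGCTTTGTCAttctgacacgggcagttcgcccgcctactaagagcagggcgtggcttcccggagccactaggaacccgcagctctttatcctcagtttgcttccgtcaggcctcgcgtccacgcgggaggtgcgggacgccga
A match of these letters does not show that NRF2 binds there.

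Among the genes of glutathione synthesis, the cystine transporter was the one that changed. Slc7a11 codes for xCT, which exchanges glutamate for cystine, the source of the cysteine in glutathione. Its level was 24.7 and 24.2 CPM in scrambled and 29.6 and 33.2 CPM in knockdown libraries of set 1, and 17.1 and 18.7 against 23.0 and 21.6 CPM in set 2. Knockdown libraries were higher in each set, and the sets differed so that set 2 knockdown libraries lay below the scrambled libraries of set 1. The log2 fold change was 0.34 ± 0.08 (adjusted p = 0.00149 in edgeR), 26.6% more RNA, with 0.37 ± 0.10 in set 1 and 0.31 ± 0.12 in set 2. This call held in each of 8 fits that left out 1 library, with adjusted p up to 0.022, and in DESeq2 (adjusted p = 0.00642).

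The listed promoter of Slc7a11 held 2 matches to TGATGCAAA, a form of the amino acid response element. These letters were chosen with this sequence in view, so their presence here is a description and not a finding. The motif was in the promoters of 18 of 8731 tested genes (0.206%), 1 of which held it at 2 places, and in 1 of the 30 genes of the list. The promoter is shown with both matches in capitals, the first on the forward strand 66 bases before the start and the second on the reverse strand 48 before it.
Slc7a11 (chr3:50443564-50443863, minus strand): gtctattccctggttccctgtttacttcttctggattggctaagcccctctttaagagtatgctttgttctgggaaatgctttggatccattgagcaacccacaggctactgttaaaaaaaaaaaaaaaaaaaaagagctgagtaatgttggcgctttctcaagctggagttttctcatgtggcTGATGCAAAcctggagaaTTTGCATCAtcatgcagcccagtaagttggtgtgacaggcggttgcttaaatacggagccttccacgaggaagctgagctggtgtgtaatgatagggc

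Gclc and Gclm code for the catalytic and the modifier subunit of glutamate-cysteine ligase, the rate-limiting enzyme of glutathione synthesis. Gclc stood at 128 and 122 CPM against 136 and 135 in set 1, and at 142 and 142 against 147 and 130 in set 2, so that the groups overlapped in set 2. Its fold was 0.04 ± 0.04 (adjusted p = 0.662). Gclm lay at 96.1 and 93.8 against 89.2 and 91.7 CPM in set 1 and at 95.7 and 96.5 against 94.5 and 94.0 in set 2, lower in the knockdown libraries of each set by little (-0.05 ± 0.04, adjusted p = 0.61). For both genes the fold plus 2 standard errors stays under the fold of Slc7a11.

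Glutathione synthetase and glutathione reductase completed the group. Gss, the synthetase, had 39.5 and 38.0 CPM against 48.3 and 46.2 in set 1 and 31.5 and 32.97 against 33.7 and 31.4 in set 2. It rose in set 1 alone (0.29 ± 0.08, adjusted p = 0.0214) and gave 0.01 ± 0.09 in set 2, but the difference of -0.28 ± 0.12 between the sets did not pass (adjusted p = 0.491). The set 1 call was lost when any of its 4 libraries was left out (adjusted p of 0.0592 to 0.285) and in DESeq2 (0.38). Gsr, the reductase that regenerates glutathione with NADPH, was at -0.12 ± 0.05 over both sets (adjusted p = 0.158).

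Of the 5 listed genes of the thioredoxin system and the peroxiredoxins 2 fell, 0 rose and 3 did not pass. Of all tested genes 3.61% fell and 3.97% rose. The 2 were thioredoxin reductase and a peroxiredoxin, while thioredoxin itself was not called. Thioredoxin reductase 1 (Txnrd1), the selenoenzyme that keeps thioredoxin reduced, stood at 418 and 442 CPM against 387 and 400 in set 1 and at 462 and 480 against 433 and 454 in set 2. Both knockdown libraries were below both scrambled libraries in each set. The log2 fold change was -0.11 ± 0.03 (adjusted p = 0.0252 in edgeR), a decrease that fell short of the threshold without scrambled replicate 2 (adjusted p = 0.118), scrambled replicate 4 (0.094), knockdown replicate 1 (0.112), knockdown replicate 2 (0.0506) or knockdown replicate 3 (0.0967). Prdx6, a peroxiredoxin that reduces phospholipid hydroperoxides and uses glutathione, had tight levels, at 216 and 217 CPM in the scrambled libraries of set 1 and 215 and 215 in set 2, against 197, 191, 199 and 202 CPM in the knockdown libraries. No knockdown library reached the lowest scrambled one. Its fold was -0.13 ± 0.03 (adjusted p = 0.0111), and it lost the call without knockdown replicate 2 (adjusted p = 0.0754).

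Thioredoxin itself, Txn1, and the peroxiredoxin Prdx1 gave folds of 0.02 ± 0.03 and -0.02 ± 0.03, with adjusted p of 0.842 for both. Per length of annotated exon, Txn1 was the most abundant of the 33 genes, at 1049 CPM per kilobase in scrambled cells, ahead of Prdx1 at 198 and Gstm1 at 173. Srxn1, sulfiredoxin, repairs overoxidised peroxiredoxins and is among the most responsive NRF2 targets. It stood at 152 and 170 CPM against 174 and 168 in set 1 and at 126 and 121 against 108 and 106 in set 2. The groups overlapped in set 1, and in set 2 both knockdown libraries were lower. Srxn1 fell in set 2 (-0.21 ± 0.06, adjusted p = 0.00669) and was at 0.09 ± 0.05 in set 1 (adjusted p = 0.415), with a difference between sets of -0.29 ± 0.08 that missed the threshold (adjusted p = 0.0846). That difference passed without a filter on low counts (adjusted p = 0.0331) and without scrambled replicate 2 (0.00946), and over the other left-out libraries its adjusted p ran from 0.108 to 0.415. The set 2 call itself was lost without scrambled replicate 3 (0.163) or knockdown replicate 4 (0.164), and in DESeq2 (0.187). Over both sets the fold was -0.06 ± 0.05 (adjusted p = 0.586).

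Nqo1, the quinone reductase most often used as a readout of NRF2 activity, did not pass. Its level was 58.3 and 63.4 CPM against 59.2 and 58.7 in set 1 and 61.6 and 56.1 against 56.5 and 58.1 in set 2, with overlapping groups in both sets. The fold was -0.04 ± 0.05 (adjusted p = 0.731), and it was -0.04 in each set fitted alone.

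Glutathione transferases, which join glutathione to electrophiles, held the largest changes. Of 9 in the list 7 were tested, 3 rose, 0 fell and 4 did not pass, where 3.97% of all tested genes rose and 3.61% fell. Mgst3, a microsomal transferase that also reduces lipid peroxides, stood at 13.3 and 10.8 CPM against 17.0 and 19.1 in set 1 and at 24.1 and 23.8 against 33.4 and 32.8 CPM in set 2. Each set separated the groups, while scrambled libraries of set 2 exceeded knockdown libraries of set 1. The log2 fold change was 0.51 ± 0.08 (adjusted p = 4.08e-06), at 0.59 ± 0.14 in set 1 and 0.46 ± 0.10 in set 2. The gene lies on chromosome 1 at 167371966 to 167393841.

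Gsta4, which conjugates 4-hydroxynonenal and other products of lipid peroxidation, had the lowest p of the list. It was at 98.4 and 101 CPM in scrambled and 134 and 137 CPM in knockdown libraries of set 1, and at 146 and 137 against 177 and 174 CPM in set 2. The knockdown libraries were higher in each set by more than the gap between replicates. The fold was 0.37 ± 0.04 (adjusted p = 5.82e-11), 29.3% more RNA, and it passed in each set alone, at 0.44 ± 0.06 (adjusted p = 5.78e-10) and 0.30 ± 0.05 (adjusted p = 2.07e-07). The gene lies on chromosome 9 at 78191966 to 78209349, and Gsta1 lies between it and Gsta2. The 27 other tested genes within 5 Mb of Gsta4 had a median of 0.03. For Gsta4 the log2 fold change in the authors' deposited table is 0.438 in set 1 (q = 5.77e-11) and 0.302 in set 2 (q = 4.21e-05).

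Gstm1, a cytosolic transferase of the mu class, rose less. It stood at 243 and 238 CPM against 260 and 265 in set 1 and at 263 and 274 against 298 and 305 CPM in set 2, higher in the knockdown libraries of each set. The fold was 0.15 ± 0.03 (adjusted p = 0.0016), and it passed in set 2 alone (adjusted p = 0.00554) while set 1 gave 0.0948. Its neighbours in the mu cluster on chromosome 3, Gstm2 and Gstm5, gave 0.26 ± 0.13 (adjusted p = 0.257) and 0.06 ± 0.07 (adjusted p = 0.69). These are paralogs, and how the counting treated reads that match several of them is not stated, so their values are uncertain to that extent. Reads of Gstp1, Txn1, Prdx1 and Gpx4 may likewise be shared with copies or pseudogenes. Gsto1, of the omega class, was at 214 to 220 CPM in the scrambled and 205 to 210 CPM in the knockdown libraries with no overlap, a fold of -0.08 ± 0.03 that did not pass (adjusted p = 0.181). Calls of Mgst3, Gsta4 and Gstm1 held when any single library was left out, with adjusted p up to 9.13e-05, 8.82e-09 and 0.0177, and in DESeq2.

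A pair of transferases were below the mean count of 10. Mgst1 had 8, 10, 9 and 9 counts in scrambled replicates 1 to 4 and 3, 2, 4 and 4 counts in knockdown replicates 1 to 4, lower in all knockdown libraries. Fitted with no filter, it gave -1.60 ± 0.59 with an adjusted p of 0.0965 over 16458 genes. Gsta2 was at 0 in 6 libraries and at 1 count in knockdown replicates 1 and 2, and a count of 0 allows up to 0.129 to 0.244 CPM at these depths, counting error alone.

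**Figure D2:**
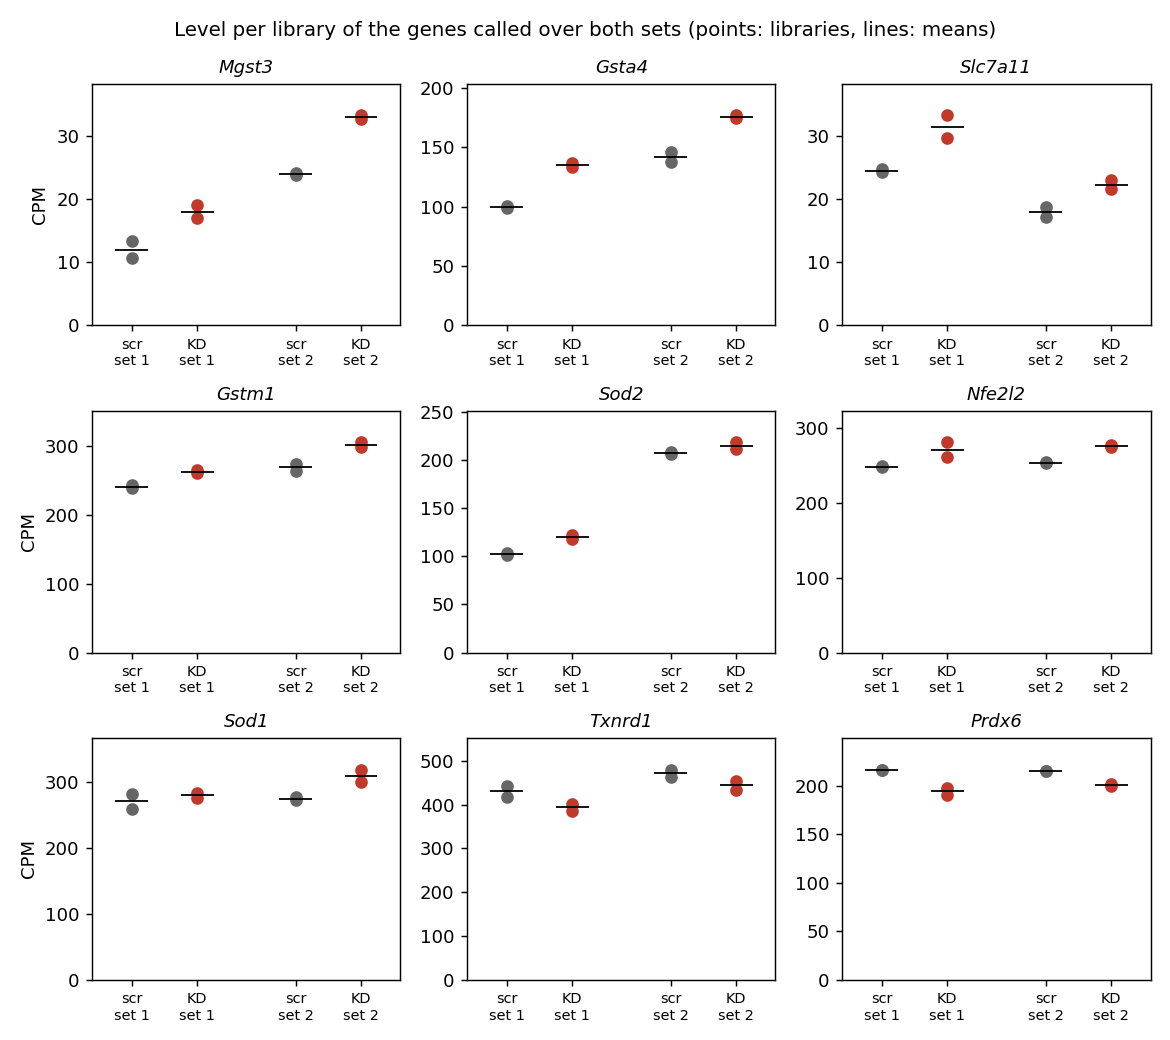
CPM in each library (points) of the 9 genes called over both sets, in panels ordered from the largest rise to the largest fall, by group (grey, scrambled; red, RPRD1B knockdown) and set, with lines at the mean of 2 libraries and the vertical axis starting at 0. Mgst3 goes from about 24 to 33 CPM in set 2, while Txnrd1, at 387 to 480 CPM over the 8 libraries, shifts by little.

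Besides the peroxiredoxins, of which Prdx6 fell and Prdx1 was not called, and the transferases, 5 listed genes remove superoxide or peroxide. Among these 5, Sod1 and Sod2 rose, 0 fell and 3 did not pass, where 3.97% of all tested genes rose and 3.61% fell. Sod1, the cytosolic copper-zinc enzyme, was at 259 and 282 CPM against 276 and 284 in set 1, where the groups overlapped, and at 276 and 272 against 299 and 318 in set 2, where they did not. Its fold was 0.11 ± 0.03 (adjusted p = 0.0311), with 0.05 ± 0.05 in set 1 and 0.17 ± 0.04 in set 2 (adjusted p = 0.63 and 0.00344). Sod2, the mitochondrial manganese enzyme, showed the opposite order, with 104 and 102 against 118 and 122 CPM in set 1 and 209 and 206 against 218 and 212 CPM in set 2. The fold of 0.13 ± 0.04 (adjusted p = 0.0244) was made up of 0.23 ± 0.06 in set 1, with an adjusted p of 0.00623, and 0.05 ± 0.05 in set 2, with 0.692. The differences between sets did not pass for Sod1 (0.12 ± 0.06, adjusted p = 0.588) or Sod2 (-0.18 ± 0.07, adjusted p = 0.431). DESeq2 gave adjusted p of 0.0787 for Sod1 and 0.0673 for Sod2. Of the libraries left out in turn, 6 of 8 left-out libraries ended the call of Sod1 (all but scrambled replicate 2 and knockdown replicate 1; adjusted p up to 0.242), and scrambled replicates 1 and 2 and knockdown replicates 1 and 2 each ended that of Sod2 (up to 0.166). Gpx1 and Gpx4, glutathione peroxidases of soluble and of lipid hydroperoxides, and catalase (Cat) lay between -0.01 and 0.07 on the log2 scale (adjusted p of 0.244 to 0.972).

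Genes of NADPH supply and of export gave no call. The pentose phosphate enzymes G6pdx, Pgd, Taldo1 and Tkt and malic enzyme (Me1) lay between -0.10 and 0.01 on the log2 scale, with adjusted p of 0.288 to 0.933. Abcc1, an exporter of glutathione conjugates, was at -0.05 ± 0.04. Abcc4, which exports cyclic nucleotides and other organic anions, stood at 12.2 and 11.99 against 15.0 and 13.6 CPM in set 1 and at 10.2 and 12.1 against 14.4 and 13.3 CPM in set 2. All 4 knockdown libraries were above all 4 scrambled ones, but the fold of 0.27 ± 0.10 did not pass (adjusted p = 0.0901).

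The 2 sets share no library, so their folds can be set side by side. Of 33 genes 23 had folds on the same side of 0 in each set (69.7%), against 58.9% of 11427 genes tested in both. In set 1 Mgst3, Gsta4, Slc7a11, Gss and Sod2 rose and Prdx6 fell, 6 calls or 18.2% of the list against 4.86% of all tested genes (2.68% higher and 2.18% lower). Without knockdown replicate 1 or 2, Gsta4 was the 1 gene still called, without scrambled replicate 2 Gsta4 and Sod2, and without scrambled replicate 1 Gsta4, Mgst3 and Sod2, while Prdx6 lost its call (adjusted p = 0.0802) and Txnrd1 became a lower call (adjusted p = 0.0177). In set 2 Mgst3, Gsta4, Gstm1 and Sod1 rose and Srxn1 fell, 5 calls or 15.2% against 5.19% (2.55% higher and 2.64% lower). Without scrambled replicate 3 or knockdown replicate 4, Gsta4 and Mgst3 were the 2 genes still called. DESeq2 called Gsta4 alone in each set, where it called 0.687% of all genes higher and 0.412% lower in set 1 and 0.705% and 0.748% in set 2. Mgst3 and Gsta4 were called in both. For none of the 33 did the change with knockdown differ between the sets at an adjusted p under 0.05 in edgeR, or in DESeq2. It did for 0.247% of all tested genes in edgeR (0.171% higher and 0.0768% lower). An unadjusted p under 0.05 for this difference in change was found for 5 of the list (Keap1, Gclc, Gss, Srxn1 and Sod2), against 8.64% of all tested genes. In the authors' deposited table of set 1, a q under 0.05 is given for 3 genes of the list, Mgst3, Sod2 and Gsta4, and in the authors' deposited table of set 2 for 4, Mgst3, Sod1, Gstm1 and Gsta4, all of them higher. Over all genes, the authors' deposited table of set 1 has such a q for 1.42% higher and 1.05% lower, and that of set 2 for 1% higher and 1.04% lower.

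**Figure D3:**
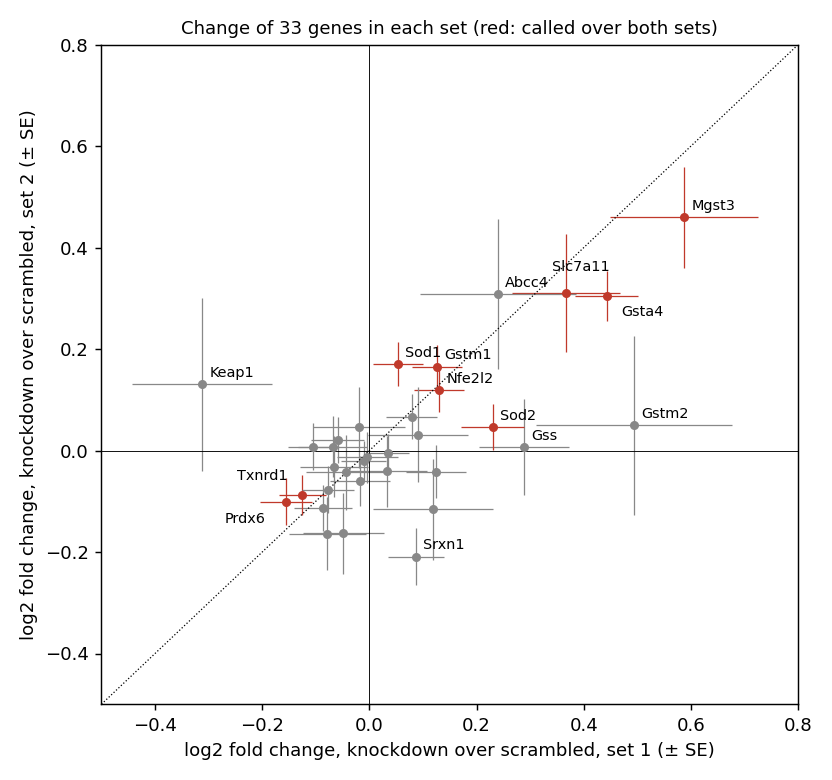
Change with knockdown (log2) in set 1 (horizontal) and set 2 (vertical) for the 33 tested genes, with bars of 1 SE and a dotted line of equal change; red points were called over both sets. Mgst3 (0.59 and 0.46), Gsta4 and Slc7a11 lie farthest out near the line, and Srxn1 (0.09 and -0.21) lies in the quadrant of opposite signs.

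As a second view of the libraries, 7 tested genes of the list had both knockdown libraries above both scrambled libraries in each set, against 8.23% of all tested genes, and 5 had them below, against 8.18%. Those above were Nfe2l2, Slc7a11, Gsta4, Gstm1, Mgst3, Abcc4 and Sod2, and those below were Gclm, Txnrd1, Prdx6, Gsto1 and Sqstm1. Nfe2l2 and Abcc4 were higher and Prdx6 and Gsto1 lower in all 4 knockdown libraries than in any scrambled library, which is 6.06% of the list each way, against 2.01% higher and 1.74% lower of all tested genes.

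Differences between the sets were often larger than the change with knockdown. Of the 33 genes 13 were higher and 8 lower in set 2 than in set 1, 63.6% of the list, near the 65.9% of all tested genes called (33% higher and 32.9% lower), so this share says nothing particular about the list. Sod2 was at 102 to 122 CPM in set 1 and 206 to 218 CPM in set 2, a log2 difference of 0.92 ± 0.04 (adjusted p = 4.12e-32 in edgeR). Sqstm1 went from 136 to 145 CPM up to 221 to 243 CPM (0.74 ± 0.04, adjusted p = 6.45e-29). For Mgst3 the difference was 0.93 ± 0.08 (adjusted p = 4.79e-16), and Pgd, the second NADPH-producing enzyme of the pentose phosphate pathway, differed by 0.43 ± 0.04 (adjusted p = 5.68e-16). Pgd stood at 124 and 126 CPM in scrambled and 124 and 122 CPM in knockdown libraries of set 1, and at 176 and 165 against 162 and 165 CPM in set 2. None of these 4 genes overlapped between the sets, as was so of 9 higher and 7 lower genes of the list, against 28.1% and 27.9% of all tested genes. In the other direction Keap1 stood at -0.82 ± 0.11, Srxn1 at -0.53 ± 0.05, Slc7a11 at -0.48 ± 0.08 and Gss at -0.41 ± 0.06, all called, while Nfe2l2 (0.03 ± 0.03) and Nqo1 (-0.04 ± 0.05) did not pass.

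**Figure D4:**
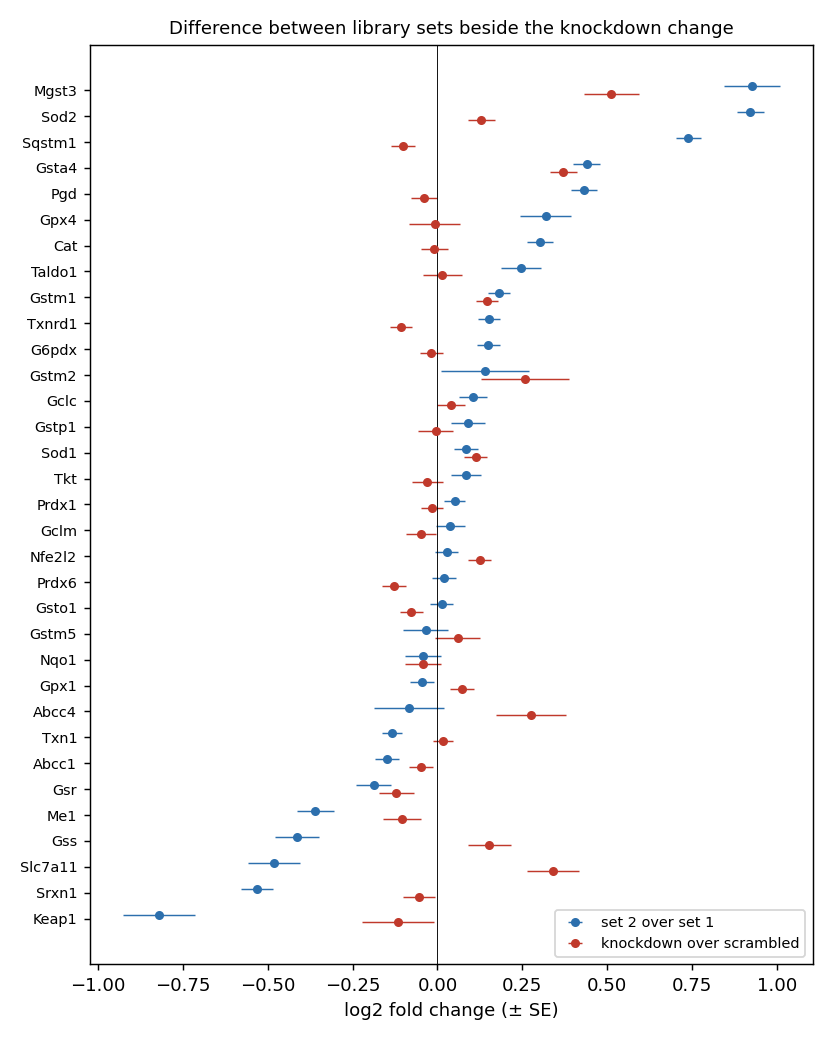
Log2 fold change of set 2 over set 1 (blue) and of knockdown over scrambled cells (red) for the 33 tested genes, each with bars of 1 SE, from the fit over 8 libraries and ordered by the set difference. Blue values run from -0.82 for Keap1 to 0.93 for Mgst3, a wider range than the red ones, which run from -0.13 for Prdx6 to 0.51 for Mgst3.

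Further genes of the pathway gave few calls. Of 74 other genes of NRF2 regulation, glutathione turnover and antioxidant defence 58 were tested, 4 rose and 1 fell, 8.62% against the background of 7.57%, with a median log2 fold change of 0.03. Fth1, the heavy chain of ferritin and an NRF2 target, rose by 0.19 ± 0.03 (adjusted p = 3.3e-07), from a mean of 1995 to 2281 CPM; ferritin has many processed pseudogenes, so its reads may be shared. Gstt3, a theta-class transferase, rose by 0.60 ± 0.16 (adjusted p = 0.0109), Nqo2, a quinone reductase related to Nqo1, by 0.36 ± 0.11 (adjusted p = 0.0339) and the cytosolic peroxiredoxin Prdx2 by 0.13 ± 0.04 (adjusted p = 0.0403). Sod3, the extracellular superoxide dismutase, fell from a mean of 11.2 to 7.74 CPM (-0.54 ± 0.12, adjusted p = 0.00109). Fth1 and Sod3 held their calls when any single library was left out, while Gstt3, Nqo2 and Prdx2 lost theirs in 3, 5 and 7 of the 8 cases. DESeq2 called Fth1 and Sod3, but not Gstt3, Nqo2 or Prdx2 (adjusted p of 0.0556, 0.131 and 0.0863). Hmox1, like Fth1 a target of NRF2, was not called (-0.01 ± 0.04, adjusted p = 0.931 in edgeR). Its mean was 447 CPM in both groups, with folds of -0.09 ± 0.05 in set 1 and 0.07 ± 0.04 in set 2. Serpinb6a overlaps 18.9% of the Nqo2 exons on the opposite strand, and Gm20441 overlaps 13.6% of the Gstt3 exons on the same strand.

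The 9 called genes lie on chromosomes 1, 2, 3, 9, 10, 16 and 17, and the medians of the tested genes within 5 Mb of each ran from -0.02 to 0.05. Gsta4 and Gsta2 share a stretch of chromosome 9 with Gclc, as Gstm1, Gstm2 and Gstm5 share one of chromosome 3, and within both stretches called genes stood beside genes that did not pass.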

How the data were processed

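RNA of 8 NIH3T3 libraries was made into cDNA with random hexamers and sequenced as paired-end 75-base reads, per the labels. The authors deposited raw counts per gene, not normalised, on the mm10 build per the submitters' processing notes; which aligner, counting tool and annotation they used is not given in the sources used here. Their deposited comparison of each set lists a signal (mean scaled count, from 10 up), a log2 fold change, its standard error (taken here as a score on the log2 scale) and a q-value; these deposited values were not used in any test. All 23420 entries, 27 of them symbols turned into dates, stayed in the totals, and 0 sample columns were left out.

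A gene entered a fit where its counts averaged 10 or more per library. The test was edgeR's robust quasi-likelihood F test (edgeR 4.0.16, R 4.3.3) with TMM factors, two-sided. A gene was called where its Benjamini-Hochberg adjusted p was under 0.05. The fit over 8 libraries had terms for set and group; fits within a set had group alone; the difference between sets was their interaction. Standard errors were worked back from each fold change and its F statistic. CPM are TMM-scaled, and CPM per kilobase uses the union of GENCODE M21 exons. The fits were run on simulated counts with the same spread for every gene and folds larger than most of those called here. That run does not bear on changes as small as most of these. Alternatives were DESeq2 1.42.0, its size factors, other filters, no set term, a replicate block and each library left out. Replicates of a group within a set differed by more than counting noise.

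The genes, the lists and the tests were chosen with earlier results of these data known. Values in every library are given for genes called over both sets, for Nfe2l2, Keap1, Sqstm1, Nqo1, Gclc, Gclm, Slc7a11, Srxn1 and Txnrd1, and for the 4 with the smallest p between sets; library values of Gss, Gsto1, Abcc4 and Mgst1, the promoter searches and the 5 Mb windows were added after values were seen. Of 74 further pathway genes, those called are named, and Hmox1, which was not called, was added after values were seen.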

Additional observations from a re-analysis of the deposited data

Results flagged for a closer look

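In groups of 4 libraries taken over both sets, 3 of 66 groups of tested genes had 1 library far from the others. Chance flags about 1 in 20 groups only where the 4 libraries vary alike. Differences between the sets can hide such a library, so these rates cannot be compared. Prdx1 was at 631 CPM in knockdown replicate 4 against 581 to 589 CPM in the other 3 knockdown libraries. Gsto1 was at 209.6 CPM in knockdown replicate 4 against 205.2 to 205.8 CPM in the others, a small gap in a tight group. Abcc4 was at 10.2 CPM in scrambled replicate 3 against 11.99 to 12.2 CPM in the other scrambled libraries.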

How the results depend on the processing

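Over both sets, members called were 7 higher and 2 lower, and 4 to 6 and 0 to 2 when 1 library was left out; DESeq2 called 299 higher genes over all genes against 465, and with no set term 0 higher and 0 lower members were called and 12 and 6 genes over all genes (465 and 423 with it). Within set 1, members called lower were 0 with no filter and 2 with the replicate block against 1; DESeq2 called 1 higher and 0 lower members against 5 and 1, and 80 and 48 genes against 311 and 252. With a library of set 1 left out these were 1 to 3 and 0 to 1 members, and 70 to 327 and 40 to 244 genes. Within set 2 DESeq2 called 1 and 0 members against 4 and 1, and 81 and 86 genes against 300 and 311; left-out libraries gave 2 to 4 and 0 to 1 members, and 129 to 191 and 141 to 192 genes. For the difference between sets, no filter gave 1 lower member (Srxn1) against 0 and 23 lower genes against 9, DESeq2 6 and 3 genes against 20 and 9, and left-out libraries 0 to 1 lower members, 5 to 24 higher and 2 to 29 lower genes. The cause of these shifts was not tested; where a left-out library leaves an arm with 1 library, that library is assumed to vary like the others. Pairing by replicate number was not seen, since the correlation of deviations from the group means was 0.00768 (set 1) and -0.0402 (set 2) between like-numbered libraries, and the replicate block over both sets called 7 higher and 2 lower members and 445 and 401 genes. Of 1130 refits of single-gene folds 16 changed sign, all of folds near 0 that were not called, each when 1 library was left out. Over both sets Gstp1 ran from -0.0277 to 0.0212, Taldo1 from -0.0176 to 0.0293, Txn1 from -0.0053 to 0.0442, Gpx4 from -0.0597 to 0.0322, Prdx1 from -0.0402 to 0.00735 and Cat from -0.0264 to 0.00689. Within set 1 Sod1 ran from -0.00736 to 0.116 and Nqo1 from -0.102 to 0.018, and within set 2 Nqo1 from -0.104 to 0.0304 and Gss from -0.0329 to 0.0633. Depth limits the genes near 10 CPM, Keap1, Abcc4 and Gstm2, whose standard errors are 0.10 to 0.13, against 0.03 for Nfe2l2.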
